A study of Mus musculus with 6 samples.

Results

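The 46 genes described here encode proteins of the lysosome and of autophagy, and were chosen by symbol: each name of a given list was joined to the count table through the symbols the authors deposited with their fold changes. All 46 were found among the 47937 genes of the table, and all 46 passed the filter for testing, a mean normalized count of at least 10. They comprise 14 genes of the lysosomal lumen, 5 of the lysosomal membrane, 10 subunits of the proton pump, 3 transcription factors of the MiT family and 14 autophagy genes. Polyadenylated RNA came from haematopoietic stem cells (HSCs) of 8-week-old male wild-type C57BL/6 mice, untreated, with marrow pooled from femora and tibiae. Lineage-depleted marrow was sorted for LSK cells (lineage negative, Sca-1 and Kit positive) that were CD34 negative, CD48 negative, Flt3 negative and Slam1 positive. The fraction positive for the surface receptor CD93 (CD93pos) and the fraction negative for it (CD93neg) gave 3 libraries each, and both fractions share strain, genotype, age and gate. The labels call the 3 libraries of a group biological replicates but tie none to an animal, so that p-values measure the spread between these libraries, which may be technical in part.

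Lysosomes are acidic compartments in which hydrolases break down proteins, lipids and sugars delivered by endocytosis and by autophagy. The vacuolar proton pump (V-ATPase), with a membrane part V0 and a cytosolic part V1, acidifies the lumen, and the MiT factors TFEB, TFE3 and MITF switch on lysosomal and autophagy genes through a short E-box called the CLEAR element. In autophagy a membrane forms around cytoplasm or organelles: the ULK1 and Beclin 1 complexes start it, the ATG12 and LC3 conjugation systems build it, and the closed vesicle fuses with a lysosome. In HSCs of mice, autophagy is known to remove mitochondria and to be needed for the maintenance of the stem cell pool, and quiescent HSCs are known to hold large lysosomes.

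The libraries differed in ways that touch every value below. Between 5794528 and 9509304 reads were assigned to genes per CD93pos library, and 2832653 to 4614396 per CD93neg library. CD93neg replicate 1 had reads of only 4429 genes, and 71.0% of the 11805 tested genes were unread in it, against 2.10% to 26.4% in the other 5. A count of 0 allows up to 1.06 CPM (reads scaled to 1000000 assigned reads) in CD93neg replicate 1, 0.650 in CD93neg replicate 2 and 0.999 in CD93neg replicate 3, for counting error only. Cd93 itself had 906, 1001 and 550 reads in CD93pos against 0, 419 and 38 in CD93neg. Of 12 HSC marker genes, all were read in every library except CD93neg replicate 1, which had reads of 5. Genes whose proteins the gate excludes were read in both fractions. Cd34 had 1603 to 3216 reads per CD93pos library against 1715, 0 and 767 in CD93neg. Cd48 had 371 to 640 against 0, 146 and 67, and Flt3 had 236, 0 and 195 against 0, 172 and 13. Summed levels of the 15 neutrophil markers reached 14283 and 9683 CPM in CD93neg replicates 2 and 3 but 0 in CD93neg replicate 1, against 3.11 to 316 in CD93pos. Those of the 12 B lineage markers were 11211 and 34023 CPM in the same pair, against 0.706 in CD93neg replicate 1 and 76.3 to 102 in CD93pos. Results are therefore given with and without CD93neg replicate 1, and the part of the neutrophil and B lineage reads in them was not tested.

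A search of promoter windows shows which of the 46 genes carry the MiT factors' letters near their start. RefSeq windows on GRCm38.p6, from 250 bases before to 50 after a gene's start, were matched by symbol for 39 of the 46 genes (48 windows, since a gene can have several starts). The E-box core CACGTG, which reads the same on both strands, lay in 13 of these 39 (33.3%), against 8.09% of the 27025 genes with a window. The longer TCACGTGA, which contains that core, lay in 7 of 39 (17.9%), against 1.12% of all genes. With a G before and a C after it, the consensus form of the CLEAR element, it lay in 0 of 39, against 0.370%. The core was found in 4 of 13 lumen genes, 2 of 5 membrane genes, 4 of 8 pump genes, 0 of 3 MiT genes and 3 of 10 autophagy genes. A match describes letters in a window and shows no binding. Of the 7 genes with TCACGTGA, 6 are shown because they span every group in which it was found, 5′ to 3′ on the gene's strand with TCACGTGA in capitals, and the seventh is Atp6v0e.
Ctsa (lumen, chr2:164833738-164833789, plus strand): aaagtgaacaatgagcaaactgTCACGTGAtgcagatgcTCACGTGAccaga
Ctsd (lumen, chr7:142387897-142387948, minus strand): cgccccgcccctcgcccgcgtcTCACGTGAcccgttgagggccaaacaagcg
Mcoln1 (membrane, chr8:3500451-3500502, plus strand): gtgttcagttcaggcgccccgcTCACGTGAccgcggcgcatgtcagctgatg
Atp6v0d1 (pump, chr8:105566039-105566090, minus strand): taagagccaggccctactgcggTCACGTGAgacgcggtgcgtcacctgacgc
Atp6v1a (pump, chr16:44139362-44139413, minus strand): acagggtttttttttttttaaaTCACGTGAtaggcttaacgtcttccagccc
Atg3 (autophagy, chr16:45158735-45158786, plus strand): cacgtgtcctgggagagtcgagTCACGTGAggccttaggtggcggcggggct
Ctsa holds the letters 2 times within 52 bases. The 6 genes did not share a level or a direction in the data: Mcoln1, Atp6v1a and Atg3 had no read in CD93neg replicate 1, nor had Ctsd, whereas Ctsa had 1843 reads there and Atp6v0d1 had 1098.

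The comparison asks whether transcripts of the degradative machinery differ between CD93pos and CD93neg HSCs. No single gene of the 46 passed the test: limma called 0 of them at an adjusted p under 0.05, where it called 0.0% of the 11805 tested genes, and the smallest adjusted p was 0.113, for Psap. At an unadjusted p under 0.05, limma had 1 of the 46 higher in CD93pos (Mitf) and 1 lower (Psap), against 11.8% of all tested genes higher and 0.381% lower. edgeR and DESeq2 also called 0 of the 46, and each had 0 at an unadjusted p under 0.05. edgeR called 0.0% of all genes and DESeq2 5.97%. The authors' deposited table called 0 of the 40 of these genes for which it gives an adjusted p, with a smallest value of 0.915, while it called 5.97% of 11813 genes. The counts of calls rested on single libraries. Without CD93neg replicate 3, limma called 1866 genes higher (16.2%) and 7 lower. Among those higher were 4 of the 46: Scarb2 (log2 fold change 6.79, adjusted p 0.00764), Tfe3 (6.91, 0.00896), Mitf (5.60, 0.0105) and Ctss (6.03, 0.0122). The library left out held all CD93neg reads of Scarb2, Tfe3 and Mitf, and all but 1 of Ctss. Without CD93pos replicate 2 limma called 706 genes higher (6.05%) and 1 lower, none of them among the 46. Without CD93neg replicate 1 it called 0 higher and 1 lower, again none among the 46.

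Most of the 46, like most genes, had a positive log2 fold change, although the mean normalized count of most of them was lower in CD93pos. Fold changes (CD93pos minus CD93neg, on the log2(normalized count + 1) scale) were positive for 34 and negative for 12, with a median of 2.44 against 2.36 over all tested genes, 79.9% of which were positive. The mean normalized count was lower in CD93pos for 27 of the 46 (58.7%), against 41.4% of tested genes, and 15 of these 27 had a positive fold change. In CD93neg replicate 1, 27 of the 46 (58.7%) had no read, against 71.0% of all tested genes, 6 had 1 to 3 reads and Ctsz had 26. The other 12 had over 100 reads there (26.1%, against 16.3% of tested genes): Psap, Ctsa, Ctsb, Tpp1, Lamp2, Cd63, Atp6v0d1, Atp6v0e, Atp6v1b2, Atg12, Atg16l1 and Gabarapl1. For 9 of these 12 this library had the highest CPM of all 6. Of the 33 genes with at most 3 reads in it, 20 had over 100 reads in both other CD93neg libraries. Without CD93neg replicate 1 the fold change was positive for 21 and negative for 25, and 19 of the 46 changed sign. The median was then −0.10, against 0.44 over all genes, of which 60.2% were positive. The median of the 46 also depended on the method: with all 6 libraries it was −0.24 by DESeq2 and −0.15 by edgeR.

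**Figure D1:**
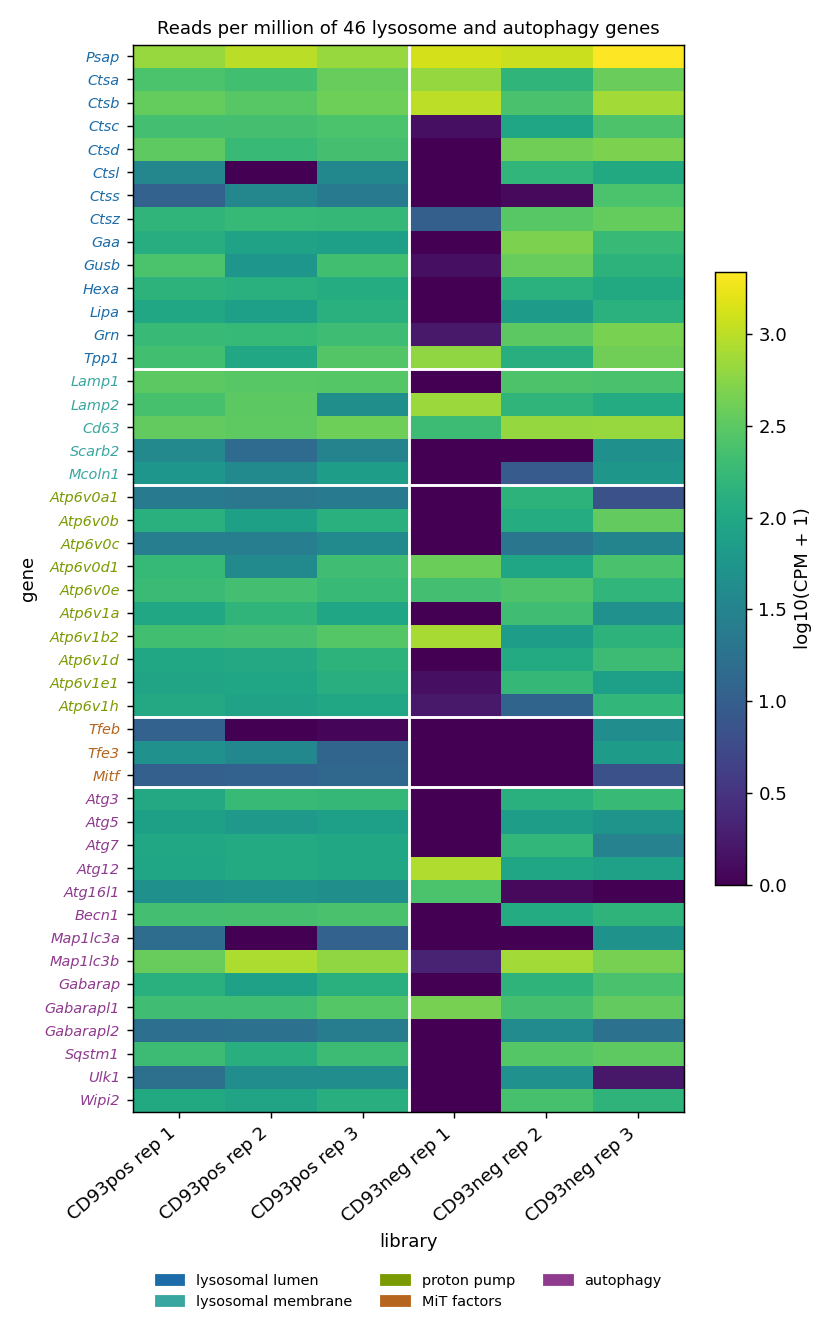
Level of each of the 46 genes (rows, coloured by group) in each library (columns), as log10(CPM + 1); "rep" numbers the replicates. The column of CD93neg replicate 1 is dark for the 27 genes unread there and bright for 12 genes with over 100 reads.

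Within CD93pos HSCs, Psap, Gabarapl1, Ctsz and Lamp1 had the highest levels of the 46 per kilobase of exon. Psap encodes prosaposin, the precursor of the saposins that help hydrolases to reach glycolipids, and stood at 283 ± 66 CPM per kb (SD, n = 3). Gabarapl1, an Atg8-family protein that coats the autophagosome, had 115 ± 22, Ctsz, which encodes the carboxypeptidase cathepsin Z, had 114 ± 6.6, and Lamp1, a major glycoprotein of the lysosomal membrane, had 111 ± 5.6 CPM per kb. The spreads of Gabarapl1, Ctsz and Lamp1 overlapped, so their order is not resolved. At the low end stood the MiT factors Tfe3 (3.40 ± 2.0), Mitf (1.74 ± 0.22) and Tfeb (0.608 ± 1.0), which ranked 43, 45 and 46 of the 46 per length. Every one of the 46 was read in CD93pos replicates 1 and 3, and 3 were unread in CD93pos replicate 2 (Ctsl, Tfeb and Map1lc3a). Reads were found in all 6 libraries for 18 of the 46 (39.1%), against 22.9% of all tested genes.

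Among the lumen genes, Psap (ENSMUSG00000004207.14, GRCm38 chromosome 10, 60277627 to 60302597, plus strand) was the 1 gene of the 46 that lay lower in every CD93pos library than in any CD93neg library, where 1.92% of all tested genes did. It had 666, 983 and 676 CPM in CD93pos against 1350, 1164 and 2188 in CD93neg, from 3824 to 6571 reads per library. The 2 groups did not overlap, with CD93pos replicate 2 nearest to CD93neg replicate 2. The log2 fold change was −1.08 (± 0.29 SE; adjusted p by limma = 0.113) with all libraries and −1.10 without CD93neg replicate 1, and it lay between −1.32 and −0.81 over the 6 fits that each leave out 1 library. The neutrophil and B lineage markers were high in CD93neg replicates 2 and 3, and their part in the Psap values was not tested.

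The proteases of the lumen split by how they were read in CD93neg replicate 1. Ctsb, which encodes the abundant cysteine protease cathepsin B, had 350, 300 and 405 CPM in CD93pos against 1006, 237 and 742 in CD93neg, with overlap and a log2 fold change of −0.78 (± 0.61 SE; adjusted p by limma = 0.61). Ctsa, which encodes the protective protein of galactosidase and neuraminidase, had 210 to 371 CPM in CD93pos and 154 to 651 in CD93neg. Tpp1, a tripeptidyl peptidase, had 100.8 to 279 and 128 to 603 CPM. All 3 were lowest in CD93neg replicate 2 within CD93neg and highest in CD93neg replicate 1. Ctsc, which encodes cathepsin C, the activator of granule serine proteases, had 218, 224 and 245 CPM in CD93pos against 0.353, 90.4 and 256 in CD93neg. The 3 CD93pos values of Ctsc lay close together and the CD93neg values ran from 1 read to above them. Its log2 fold change was 3.20 (± 2.33 SE; adjusted p by limma = 0.596) and 0.56 without CD93neg replicate 1. Ctss, the cathepsin of antigen presentation, had 747 reads in CD93neg replicate 3 and 0 and 1 in the other CD93neg libraries, against 98 to 198 in CD93pos.

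A second set of lumen genes lay lower in CD93pos than in both CD93neg replicates 2 and 3, and was empty or nearly so in CD93neg replicate 1. It held Ctsd, Ctsz, Gaa, Grn and Ctsl, and they, with Sqstm1, are described after their values were seen. Ctsd, which encodes the aspartyl protease cathepsin D, had 322, 179 and 225 CPM in CD93pos against 0, 415 and 480 in CD93neg. Gaa, the acid glucosidase that breaks down glycogen, had 120, 82.0 and 75.5 CPM in CD93pos against 0, 485 and 175 in CD93neg. Grn, which encodes progranulin, had 185, 173 and 200 CPM in CD93pos against 0.706, 318 and 471 in CD93neg. Ctsz had 154, 173 and 167 CPM in CD93pos against 9.18, 300 and 358 in CD93neg. Ctsl, which encodes cathepsin L, had 34.6, 0 and 35.4 CPM in CD93pos against 0, 156 and 105 in CD93neg, and its log2 fold change was negative both with and without CD93neg replicate 1 (−1.28 and −4.34). In each of the other 4 the sign by limma changed when CD93neg replicate 1 was left out. In the order Ctsd, Gaa, Grn and Ctsz, the log2 fold changes were 2.71, 1.74, 1.77 and 0.62 with it. They were −0.96, −1.71, −1.09 and −1.03 without it. Without that library the adjusted p by limma was 0.211, 0.184, 0.155 and 0.148, so none was called. The authors' DESeq2 values, with all libraries, were already negative for these 4 (−0.34, −1.26, −0.54 and −0.47), so the sign also depended on the method. The 2 libraries in which these genes were high are also the 2 with reads of neutrophil and B lineage markers, and the part of those reads was not tested. The remaining lumen genes, Gusb, Hexa and Lipa (a glucuronidase, a hexosaminidase subunit and the acid lipase), had 1, 0 and 0 reads in CD93neg replicate 1 and overlapped between the groups.

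Summed over the 14 lumen genes, the reads lay lower in CD93pos in every library. The sums were 3014, 2720 and 3160 CPM in CD93pos against 3620, 4015 and 6196 in CD93neg, or 2965 ± 224 and 4610 ± 1387 (mean ± SD over 3 libraries each), a ratio of 0.643 with no overlap. Psap gave 22.1%, 36.1% and 21.4% of the lumen reads in CD93pos, and 37.3%, 29.0% and 35.3% in CD93neg. In CD93neg replicate 1, Psap, Ctsa, Ctsb and Tpp1 gave 99.7% of the lumen reads, and 6 of the 14 genes had none. The lumen sums overlapped once Psap was left out, with CD93neg replicate 1 then below CD93pos replicates 1 and 3. The summed reads of all 29 lysosomal genes also overlapped without Psap. In contrast to the lumen sums, the median log2 fold change of the 14 was 1.75, with 9 positive and 5 negative, and it was −0.54 without CD93neg replicate 1. The sum weights abundant genes and the median gives each gene the same weight. The log2 scale used with limma also inflates fold changes where a library is at 0. The 2 measures had opposite signs with all libraries and the same sign without CD93neg replicate 1. With all libraries, the median of the 14 was −0.60 by DESeq2 and −0.42 by edgeR, lower in CD93pos like the sum. In bulk libraries, fewer cells of a type and less RNA per cell cannot be told apart.

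**Figure D2:**
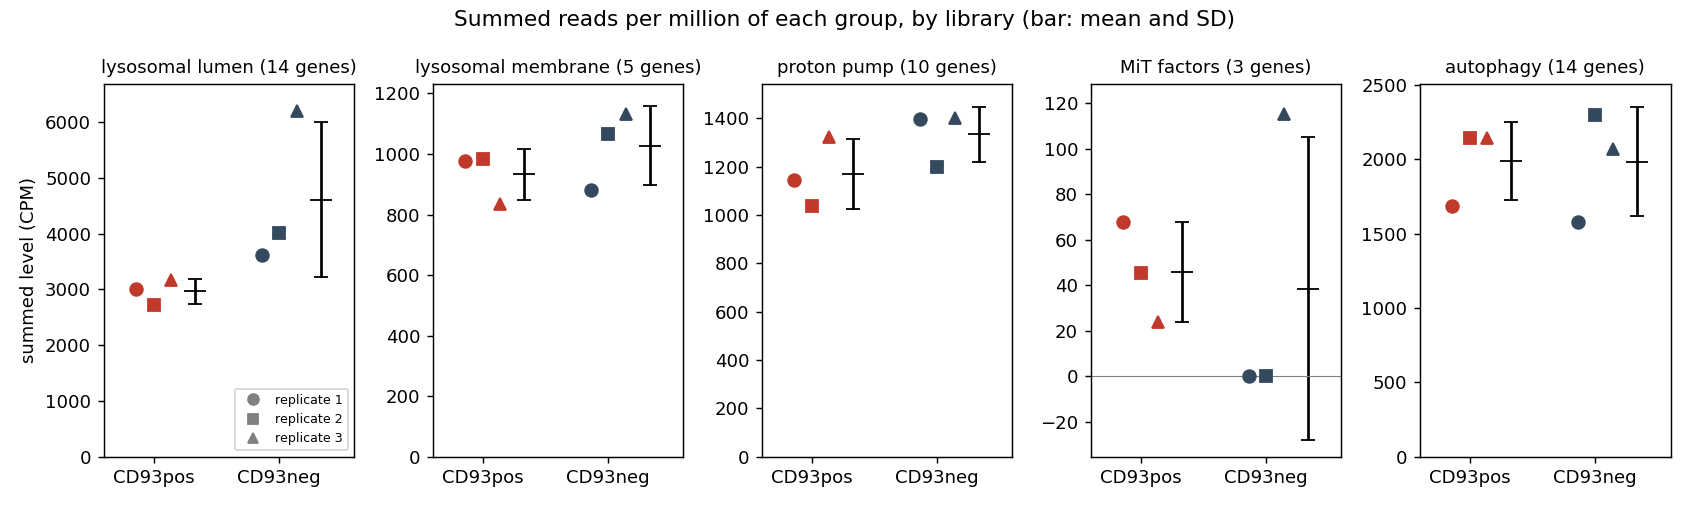
Summed level in CPM (vertical axis) of the 5 gene groups in each CD93pos (red) and CD93neg (dark) library, with the mean and SD of the 3 libraries as a bar beside them. The lumen sums lie at 2720 to 3160 in CD93pos and at 3620 to 6196 in CD93neg, while the sums of the other 4 groups overlap. The lumen sums include Psap and overlap without it.

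Of the 5 membrane genes, Lamp1 was higher in every CD93pos library and the tetraspanin gene Cd63 was not separated. Lamp1 (ENSMUSG00000031447.6, chromosome 8, 13159161 to 13175338, plus strand) had 313, 294 and 284 CPM in CD93pos against 0, 252 and 238 in CD93neg. The groups did not overlap, which held for 3 of the 46 genes in the higher direction (Lamp1, Mitf and Becn1), against 18.3% of all tested genes. The CD93neg replicates 2 and 3 of Lamp1 lay just under CD93pos: the log2 fold change was 3.62 (± 2.70 SE; adjusted p by limma = 0.599), and 0.24 without CD93neg replicate 1. Cd63, a tetraspanin of late endosomes and of secretory granules, had 341, 325 and 404 CPM in CD93pos against 194, 656 and 677 in CD93neg. CD93pos lay between the CD93neg libraries, and the log2 fold change of −0.41 (± 0.55 SE; adjusted p by limma = 0.701) became −0.94 without CD93neg replicate 1.

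The other membrane genes were low or uneven. Scarb2, which encodes LIMP-2, the carrier of glucocerebrosidase, had 342, 80 and 217 reads in CD93pos against 0, 0 and 138 in CD93neg, with a log2 fold change of 4.21 (± 2.30 SE; adjusted p by limma = 0.486). Without CD93neg replicate 3, which held all CD93neg reads of the gene, this became 6.79 (± 0.88 SE, adjusted p by limma = 0.00764). Mcoln1, which encodes the calcium channel mucolipin 1, had 529, 221 and 516 reads in CD93pos against 0, 37 and 172 in CD93neg, and in CPM its highest CD93neg library (57.3) lay within the CD93pos range of 38.1 to 72.1. Its log2 fold change was 3.48 (± 2.40 SE; adjusted p by limma = 0.577). Lamp2, the partner of Lamp1 that also serves chaperone-mediated autophagy, varied within both groups, from 45.0 to 315 CPM in CD93pos and from 114 to 688 in CD93neg. The 5 genes summed to 932 ± 84.6 CPM in CD93pos against 1027 ± 130 in CD93neg (mean ± SD over 3 libraries each), with overlap, and had a median log2 fold change of 3.48, or 0.24 without CD93neg replicate 1.

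**Figure D3:**
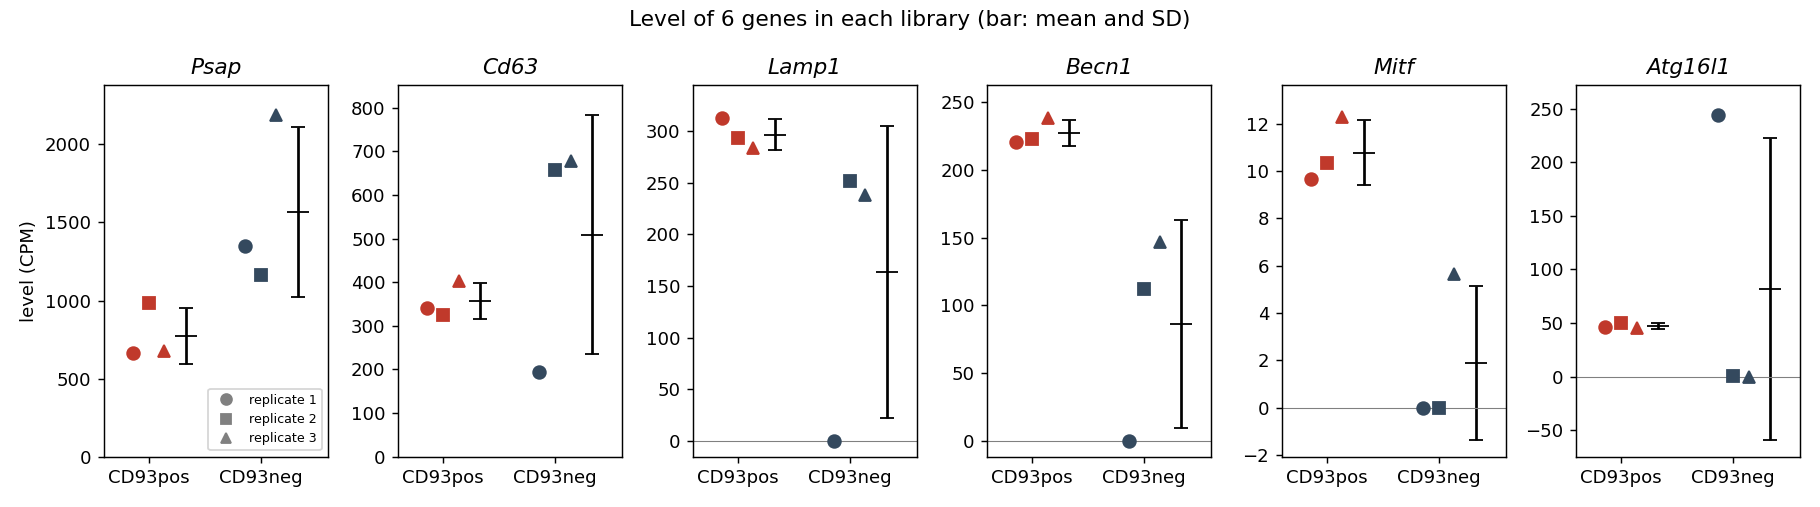
Level in CPM (vertical axis, a separate scale for each gene) of Psap, Cd63, Lamp1, Becn1, Mitf and Atg16l1 in each CD93pos (red) and CD93neg (dark) library, with the mean and SD of the 3 libraries as a bar. Psap lies at 666 to 983 in CD93pos and at 1164 to 2188 in CD93neg; Atg16l1 lies at 45.0 to 50.4 in CD93pos and at 244, 0.217 and 0 in CD93neg.

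The summed levels of the proton pump subunits overlapped between the fractions. The 10 genes together had 1144, 1039 and 1324 CPM in CD93pos against 1397, 1200 and 1402 in CD93neg, or 1169 ± 144 and 1333 ± 115 (mean ± SD over 3 libraries each), with overlap. The 5 subunits of V0, which carries the protons through the membrane, had 538, 385 and 574 CPM in CD93pos against 603, 636 and 781 in CD93neg, and these sums did not overlap. The 5 subunits of V1, which hydrolyses ATP, had 670 ± 73 and 660 ± 120 CPM. The V0 sum of CD93neg replicate 1 came from 2 genes, Atp6v0d1 (388 CPM) and Atp6v0e (216), since Atp6v0a1, Atp6v0b and Atp6v0c had no read there.

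Single subunits showed the same unevenness. Atp6v1b2, a catalytic-ring subunit of V1, had 215, 224 and 288 CPM in CD93pos against 793, 72.8 and 146 in CD93neg. CD93neg replicate 1 was the highest of all 6 libraries and the other CD93neg libraries the lowest, so that the log2 fold change was 0.15 (± 1.02 SE; adjusted p by limma = 0.939) with it and 1.19 (limma adjusted p = 0.25) without it. Atp6v1a, the subunit that binds ATP, had 99.8, 151 and 92.6 CPM in CD93pos against 0, 203 and 47.3 in CD93neg, with a log2 fold change of 3.09 (± 2.71 SE; adjusted p by limma = 0.623). Atp6v1h, a regulatory subunit, had 103, 83.7 and 99.96 CPM in CD93pos against 0.706, 10.8 and 161.5 in CD93neg. Its log2 fold change was 2.94 (± 2.29 SE, adjusted p by limma = 0.61). Atp6v0c, which forms the proton-carrying ring, had 26.2, 25.9 and 37.5 CPM in CD93pos against 0, 19.7 and 31.3 in CD93neg, and its log2 fold change was 2.49 (± 2.30 SE; adjusted p by limma = 0.625). Its values, like those of Cd63, are uncertain where reads could also fall on annotated processed pseudogenes. Atp6v1d and Atp6v1e1, of the stalk, had 0 and 1 reads in CD93neg replicate 1 and overlapped otherwise. The median log2 fold change of the 10 genes was 2.35, with 8 positive, and −0.14 without CD93neg replicate 1.

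The MiT factors had no read in CD93neg replicates 1 and 2. Mitf (ENSMUSG00000035158.15, chromosome 6, 97807052 to 98021349, plus strand), best known for its roles in melanocytes, osteoclasts and mast cells, had 92, 60 and 88 reads in CD93pos against 0, 0 and 17 in CD93neg. In CPM these were 9.67, 10.4 and 12.3 against 0, 0 and 5.66, with no overlap. The log2 fold change was 4.01 (± 1.68 SE; adjusted p by limma = 0.391), and 3.21 without CD93neg replicate 1. Mast cell and basophil markers (8 genes) also lay higher in CD93pos, at 94.7, 1057 and 696 CPM against 0, 27.5 and 0, and their part in the Mitf values was not tested. Tfe3 had 455, 204 and 81 reads in CD93pos against 0, 0 and 200 in CD93neg, so that CD93neg replicate 3 (66.6 CPM) exceeded every CD93pos library (11.3 to 47.8 CPM). Its log2 fold change was 4.14 (± 2.44 SE; adjusted p by limma = 0.516). Tfeb, the best-studied regulator of lysosome formation, had 97, 0 and 1 reads in CD93pos against 0, 0 and 129 in CD93neg, that is, reads in 1 library of each fraction and 1 read elsewhere. No direction can be read from its log2 fold change of −0.49 (± 2.51 SE; adjusted p by limma = 0.92). The 3 factors summed to 67.7, 45.6 and 23.8 CPM in CD93pos against 0, 0 and 115 in CD93neg.

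The summed levels of the 14 autophagy genes overlapped, with means closer than either SD. The sums were 1688, 2141 and 2143 CPM in CD93pos against 1580, 2298 and 2071 in CD93neg, or 1991 ± 262 and 1983 ± 367 (mean ± SD over 3 libraries each). In CD93neg replicate 1, Atg12, Gabarapl1 and Atg16l1 gave nearly all of the sum (885, 450 and 244 CPM), and 10 of the 14 genes had no read. Their median log2 fold change was 2.71, with 12 positive, and −0.08 without CD93neg replicate 1. Among the initiation genes, Becn1 (ENSMUSG00000035086.13, chromosome 11, 101285952 to 101302286, minus strand), which encodes Beclin 1 of the lipid kinase complex, had 221, 223 and 238 CPM in CD93pos against 0, 112 and 147 in CD93neg. Its 3 CD93pos values lay close together and the groups did not overlap. The log2 fold change was 3.86 (± 2.63 SE; adjusted p by limma = 0.572), and 0.80 without CD93neg replicate 1 (limma adjusted p = 0.272). Ulk1, the kinase that starts autophagosome formation, had 153, 247 and 299 reads in CD93pos against 0, 221 and 2 in CD93neg, a log2 fold change of 3.84 (± 2.23 SE; adjusted p by limma = 0.509). Wipi2, which binds the lipid made by that complex, had 87.0 to 126 CPM in CD93pos against 0, 234 and 146 in CD93neg.

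The conjugation genes build the LC3 coat. Atg16l1, which sets the place of conjugation, had 439, 292 and 322 reads in CD93pos against 691, 1 and 0 in CD93neg. The CD93neg libraries lay on both sides of CD93pos, with a log2 fold change of 3.97 (± 2.83 SE; adjusted p by limma = 0.59) that rose to 7.24 without CD93neg replicate 1 (limma adjusted p = 0.107). Atg12, the ubiquitin-like protein of that complex, had 92.4 to 109 CPM in CD93pos, 92.3 and 79.9 in CD93neg replicates 2 and 3 and 885 in CD93neg replicate 1. Atg3, Atg5 and Atg7, the other enzymes and partners of conjugation, had no read in CD93neg replicate 1 and overlapped elsewhere. The 5 genes summed to 471 ± 47.4 CPM in CD93pos against 641 ± 426 in CD93neg (mean ± SD over 3 libraries each). Without Atg12 and Atg16l1, CD93neg replicate 1 had no read of this set.

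Of the Atg8 family, Map1lc3b encodes LC3B, the standard marker of autophagosomes. It had 364, 849 and 607 CPM in CD93pos against 1.06, 748 and 457 in CD93neg, and CD93neg replicates 2 and 3 lay inside the CD93pos range. The log2 fold change of 2.83 (± 2.18 SE; adjusted p by limma = 0.606) was −0.06 without CD93neg replicate 1. Gabarapl1 was read in all 6 libraries, at 206 to 283 CPM in CD93pos and 225 to 450 in CD93neg. Gabarap and Gabarapl2 had no read in CD93neg replicate 1, and Map1lc3a was read in 3 of the 6 libraries. The 5 genes summed to 982 ± 220 and 908 ± 396 CPM (mean ± SD over 3 libraries each). Sqstm1, which encodes p62, the receptor that ties cargo to LC3, had 194, 126 and 194 CPM in CD93pos against 0, 286 and 327 in CD93neg. It lay lower in CD93pos than in CD93neg replicates 2 and 3, with a log2 fold change of 2.58 (± 2.84 SE; adjusted p by limma = 0.652) that became −0.90 without CD93neg replicate 1.

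**Figure D4:**
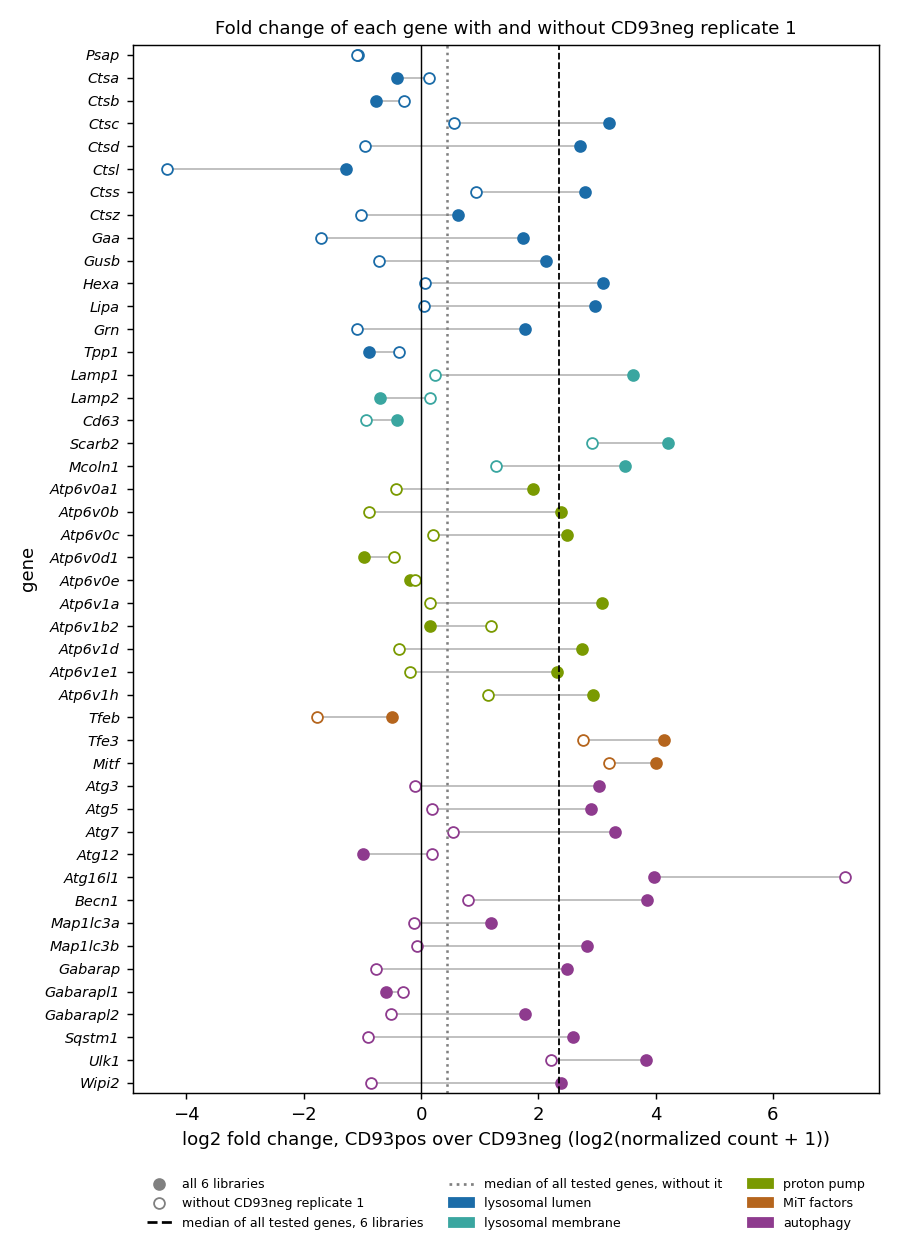
Log2 fold change of each of the 46 genes (CD93pos minus CD93neg, log2(normalized count + 1) scale, horizontal axis), coloured by group, with all libraries (filled) and without CD93neg replicate 1 (open). With all libraries 34 lie above 0, and without that library 21 do.

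Set against each other within a library, lysosomal reads exceeded autophagy reads by more in CD93neg on average. The ratio of summed reads of the 29 lumen, membrane and pump genes to those of the 14 autophagy genes was 3.04, 2.22 and 2.48 in CD93pos against 3.73, 2.73 and 4.22 in CD93neg, or 2.58 ± 0.422 and 3.56 ± 0.756 (mean ± SD over 3 libraries each). The groups overlapped, since CD93pos replicate 1 lay above CD93neg replicate 2. This ratio does not depend on how libraries were scaled. In CD93neg replicate 1 it rests on few genes, since 14 of the 29 lysosomal and 10 of the 14 autophagy genes had no read. Without Psap the ratio was 2.19 ± 0.446 and 2.76 ± 0.478. The 29 lysosomal genes summed to 5066 ± 294 CPM in CD93pos against 6971 ± 1537 in CD93neg, with no overlap, and without Psap to 4469, 3760 and 4643 against 4549, 5118 and 6543, with overlap. The lower lysosomal reads of CD93pos were thus separated from CD93neg with Psap among them and not without it.

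With CD93neg replicate 1 left out, the 46 genes divided in both directions. The groups then did not overlap for 5 genes higher in CD93pos (Lamp1, Atp6v1b2, Mitf, Atg16l1 and Becn1), against 21.7% of 12008 tested genes, and for 10 lower (Psap, Ctsd, Ctsl, Ctsz, Gaa, Grn, Cd63, Gabarap, Sqstm1 and Wipi2), against 13.7%. At an unadjusted p under 0.05 by limma, 3 were higher (Atp6v1b2, Atg16l1 and Becn1), against 12.4% of all genes, and 7 lower (Psap, Ctsd, Ctsz, Gaa, Grn, Cd63 and Sqstm1), against 4.31%. None was called after adjustment, where 0.00833% of all genes were. Leaving out CD93neg replicate 2 in its place gave 10 genes without overlap in the higher direction (background 29.9%) and 6 in the lower (4.2%), and leaving out CD93neg replicate 3 gave 11 (35.6%) and 2 (4.35%). These counts of higher genes were below the share over all genes in each case. The counts of lower genes were above that share without CD93neg replicate 1 or 2, and near it without CD93neg replicate 3. Neither difference from the share was tested.

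The other genes of the pathway, in 9 lists that share no gene with the 46, had fold changes of the same kind, and none was called by limma. The 40 other lysosomal hydrolases and cofactors had a median log2 fold change of 2.25, or −0.18 without CD93neg replicate 1, with 4 higher at an unadjusted p under 0.05, a share near the 11.8% of all tested genes. Galns and Gla, the enzymes lacking in Morquio A and Fabry disease, had 57 to 210 and 96 to 116 reads per CD93pos library, and no read in CD93neg (limma adjusted p = 0.0558 and 0.0581). The 29 other membrane proteins had a median of 3.00 (0.67), with 4 higher at that p, and the smallest p in Slc29a3, a nucleoside transporter, and Slc11a2, an iron transporter, which had 1 and 0 reads in CD93neg. The values in parentheses here and below are those without CD93neg replicate 1. The 8 other V-ATPase subunits had a median of 2.81 (−0.30). Tcirg1, a V0 subunit best known from osteoclasts, had 633, 584 and 351 reads in CD93pos against 2395, 1249 and 477 in CD93neg, lower in every CD93pos library once scaled, with a log2 fold change of −2.35 (limma adjusted p = 0.423). Atp6ap1, an accessory subunit, had a log2 fold change of −1.83 (limma adjusted p = 0.507).

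The 16 genes of the initiation and PI3K complexes had a median of 3.91 (2.28) against 2.36 (0.44) over all genes, with 4 higher at an unadjusted p under 0.05 (against 11.8% of all tested genes) and 5 that did not overlap, all higher in CD93pos (against 18.3%). Summed over all 17 genes of the list, tested or not, reads were 875, 1203 and 773 CPM in CD93pos against 355, 611 and 615 in CD93neg. These sums did not overlap. CD93neg replicate 1 was lowest, with reads of 4 of the 17 genes and over 10 reads of only 1, so its sum rests on that gene. Atg13, the partner of ULK1, had 826, 1296 and 897 reads in CD93pos against 0, 0 and 69 in CD93neg, a log2 fold change of 6.97 (limma adjusted p = 0.219). Nrbf2, a component of the Beclin 1 complex, had 199, 191 and 234 reads against 0, 0 and 2, a log2 fold change of 6.30 (limma adjusted p = 0.0612). The 15 genes of delivery by mannose 6-phosphate and sortilin had a median of 2.97 (0.51), with the smallest p in Ap1b1 and Igf2r, and the 20 of mTORC1 and its lysosomal regulators 2.10 (−0.04), with the smallest p in Depdc5 and Rragb. The 6 other conjugation genes had a median of 1.83 (0.19), with the smallest p in Atg4a and Atg4b. The 10 other receptors had 2.91 (0.14), with 4 higher without overlap (against 18.3% of all tested genes), and the smallest p in Tollip and in Bnip3l, the mitophagy receptor NIX. The 14 fusion genes had 3.35 (0.59), with the smallest p in Vps33a and Vps18. CD93neg had no read of 6 tested genes of these lists, and with those at their lower bound (a floor of 3 reads over the group) the medians did not change.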

How the data were processed

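Libraries were grouped by the titles in the labels. STAR, featureCounts (Subread 1.5.0-p1) and DESeq2 1.26 with GRCm38 and mm10 are named in the submitters' processing notes; the annotation and the strand option were not given in the sources used here, and genes that overlap or lie antisense could not be separated. Deposited by the authors were a signal table (counts divided by a size factor) for 47937 genes, and a table of the authors' log2 fold changes with their standard errors, Wald scores, p-values and adjusted p-values. Whole reads were recovered from the signal steps for 100% of values (tolerance 0.001). limma 3.58.1 (lmFit, eBayes with trend, two-sided) was run on log2(normalized count + 1) for the 11805 genes with a mean of at least 10, with Benjamini-Hochberg adjustment at 0.05 over all of them. This scale inflates fold changes where a library is at 0. edgeR 4.0.16 and DESeq2 1.42.0 on the recovered reads were alternatives, in R 4.3.3, beside another pseudocount, filter, scalings, the replicate block and each library left out. Sums and ratios are descriptions with no test. Scripts were tested on simulated data. Positions and exon lengths came from GENCODE M21 (47310 IDs matched without version), promoters from RefSeq. Python 3.11.15 was used.

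Fold changes and per-library values are given, per group, for the 3 genes with the smallest p and the most abundant one, and for genes whose groups did not overlap; others were added after their values were seen, as were Ctss and Atg12. At most 2 genes per pathway list are named. The members and lists were chosen with earlier results of these data known.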

Additional observations from a re-analysis of the deposited data

How the results depend on the processing

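Depth and the empty values of CD93neg replicate 1 limit every fold change: in 13 alternative fits 21 of the 46 genes kept 1 sign (6 negative, 15 positive) and 25 took both. DESeq2 called 659 genes higher and 46 lower over all genes, against 0 by limma. Over the fits that leave out 1 library, limma called 0 to 1866 genes higher and 0 to 7 lower, and 0 to 4 of the 46 higher. Members without overlap numbered 3 to 11 higher and 1 to 10 lower, and with quantile normalization 0 were lower. The cause was not tested for any of these, nor for the values below.

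Whether the replicate numbers pair the samples could not be settled, since the labels tie no library to an animal. Deviations of same-numbered libraries correlated at only 0.037, 0.019 and 0.061, although each library correlated best with its own number. With 71.0% of tested genes unread in CD93neg replicate 1, such correlations cannot decide it. With the replicate as a block, 15 genes were called higher and 9 lower, and Psap was the 1 member called lower (log2 fold change −1.08, limma adjusted p = 0.000931). The block leaves few degrees of freedom per gene and limma pools the spread over genes, so this p rests mainly on the pooled spread. The median log2 fold change of the MiT factors (4.01) was 0.42 with DESeq2, 0.47 with edgeR and 0.23 with quantile normalization, and that of the 16 initiation and PI3K genes (3.91) was 0.74, 0.82 and 1.053. With DESeq2 and edgeR, the medians were −0.60 and −0.42 for lumen and 0.71 and 0.79 for membrane. For pump they were −0.024 and 0.14, and for autophagy −0.11 and −0.016. With the mean of log2 values in place of the sum, the log2 difference turned positive for lumen (1.19), membrane (2.04), pump (1.69) and all 29 lysosomal genes (1.51), was 2.33 for autophagy, and was −0.82 for lysosome against autophagy. The summed MiT level gave no value without CD93neg replicate 3, since CD93neg was then at 0.

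Log2 fold changes that reversed with DESeq2 and edgeR were −0.34 and −0.25 for Ctsd, −0.47 and −0.39 for Ctsz, −1.26 and −1.17 for Gaa, −0.54 and −0.46 for Grn, −1.93 and −1.89 for Ctss, −0.65 and −0.21 for Atp6v1b2, −0.99 and −0.45 for Atg16l1, and −0.30 and −0.20 for Sqstm1. With quantile normalization they were −0.48 for Ctsz, −0.996 for Gaa, −0.11 for Grn and −1.48 for Ctss. Leaving out 1 library gave −0.96 to 4.61 for Ctsd, −1.03 to 1.54 for Ctsz, −1.71 to 3.81 for Gaa, −1.09 to 3.36 for Grn, −0.65 to 1.19 for Atp6v1b2, −2.21 to 0.54 for Tfeb, −0.061 to 4.44 for Map1lc3b and −0.90 to 4.40 for Sqstm1.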

Other observations

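Markers of other blood cells were read at low or uneven levels in the same libraries. The 6 monocyte markers summed to 56.2, 172 and 38.6 CPM in CD93pos and 0, 27.1 and 824 in CD93neg, and the 12 macrophage markers to 22.8, 35.9 and 92.6 against 0, 0 and 102. Ctss, a cathepsin that monocytes and macrophages express, had its highest level, 249 CPM, in the CD93neg library with the most monocyte reads, and the part of those reads was not tested. The 8 dendritic cell markers summed to 66.9, 73.9 and 82.5 CPM in CD93pos and 114, 206 and 264 in CD93neg, and the 8 T and NK cell markers to 343, 203 and 418 against 247, 53.1 and 95.6. Most of the dendritic cell marker reads in every library were of Bst2, while Itgax, Xcr1 and Cd209a had none. Nkg7, with 928 to 3183 reads per CD93pos library, gave most T and NK cell marker reads there. Cd3d, Cd3e and Cd3g had at most 26 reads in any library. Megakaryocyte markers (6 genes) lay at 1327, 568 and 1121 CPM in CD93pos and 298, 435 and 257 in CD93neg, and erythroid markers (9 genes listed) at 372, 309 and 634 against 228, 11.5 and 80.6. The 12 HSC markers summed to 2609, 2681 and 1842 CPM in CD93pos and 5194, 4021 and 2568 in CD93neg. In CD93neg replicate 1, nearly all of these reads were of Meis1, Kit and Hlf (7138, 5142 and 2414 reads).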
